A study of Homo sapiens with 6 samples.

Results

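The proteasome subunit genes were examined in MDA-MB-231 cells whose YAP1 had been knocked down. They were taken as the protein-coding genes named PSMA, PSMB, PSMC, PSMD, PSME, PSMF or PSMG with a number. A mean of at least 0.5 FPKM over all libraries was required, where FPKM is a level of fragments corrected for transcript length and library size. Of 48 such symbols, 46 reached this level, among 14770 genes tested and 60612 gene identifiers listed. The remaining symbols were PSMA8, the alpha subunit of the testis, and PSMB11, the beta subunit of the thymus, both listed at 0 in the 6 libraries.

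MDA-MB-231 is an established mesenchymal-like triple-negative breast cancer line. The control group, Sh-NC, stably expressed a control hairpin and had the genotype label WT. The Sh-YAP1 group stably expressed a hairpin against YAP1, a transcriptional co-activator of the Hippo pathway, and had the genotype label YAP1 knockdown. No treatment was given, total RNA was taken with Trizol on day 3, and each group had 3 libraries. The labels do not tell hairpins apart within a group or say whether replicates came from separate cultures. The study's methods describe data in general as from independent experiments, without naming the sequencing, so p-values measure the spread between these samples, which may be partly technical. The question of the comparison was which transcripts change when YAP1 is lowered.

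The proteasome is the protease that degrades most short-lived and damaged proteins of the cell, usually after they are tagged with ubiquitin. Its core is a barrel of stacked rings, with outer alpha rings that gate the entry and inner beta rings that cut peptide bonds. A cap on the barrel binds ubiquitin, removes it, and feeds the unfolded chain into the core with a ring of ATPases. Alternative activators can replace the cap, and dedicated chaperones build the rings without staying in them. When immune signals such as interferon act, the catalytic beta subunits are replaced by inducible ones to form the immunoproteasome. In many cell types the subunit genes are transcribed together, partly through NFE2L1, which acts when proteasome activity falls short.

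The promoters of 4 members are shown because the results below turn on these genes or on their groups. PSME3 was the member past the test threshold, PSMB2 the nearest to it among the lower members, PSMC4 a subunit of the cap's ATPase ring and PSMB10 an inducible subunit. Each sequence is the RefSeq window of GRCh38.p14 from 250 bases before to 50 bases after the transcription start, on the strand of the gene. Capitals mark matches to 3 motifs searched on both strands, namely TGACNNNGC, the core of the antioxidant response element bound by NFE2L1 and NFE2L2, GGAATG, the site of the TEAD factors that carry YAP1 to DNA, and the core of the interferon-stimulated response element, a pair of GAAA blocks with any 2 bases between them. The windows lie at chr17:42833147-42833446 (plus strand), chr1:35641477-35641776 (minus strand), chr19:39970915-39971214 (plus strand) and chr16:67936801-67937100 (minus strand).
PSME3: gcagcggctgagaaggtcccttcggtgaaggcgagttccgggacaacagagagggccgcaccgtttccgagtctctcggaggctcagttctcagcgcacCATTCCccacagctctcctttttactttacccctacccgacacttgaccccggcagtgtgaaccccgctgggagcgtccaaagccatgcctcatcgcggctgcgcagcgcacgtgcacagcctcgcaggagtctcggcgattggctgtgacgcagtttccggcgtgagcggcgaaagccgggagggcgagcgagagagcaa
PSMB2: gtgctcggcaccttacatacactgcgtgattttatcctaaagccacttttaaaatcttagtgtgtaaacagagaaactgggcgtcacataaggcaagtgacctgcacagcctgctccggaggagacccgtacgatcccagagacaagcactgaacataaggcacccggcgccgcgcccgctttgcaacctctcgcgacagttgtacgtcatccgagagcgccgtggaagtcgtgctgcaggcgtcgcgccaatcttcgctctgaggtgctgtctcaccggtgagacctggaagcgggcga
PSMC4: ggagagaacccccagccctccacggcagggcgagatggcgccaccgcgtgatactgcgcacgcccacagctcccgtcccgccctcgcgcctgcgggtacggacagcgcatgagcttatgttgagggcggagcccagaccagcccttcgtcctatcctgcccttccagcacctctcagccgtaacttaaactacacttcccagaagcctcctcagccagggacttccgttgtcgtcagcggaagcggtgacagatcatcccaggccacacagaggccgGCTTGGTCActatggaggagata
PSMB10: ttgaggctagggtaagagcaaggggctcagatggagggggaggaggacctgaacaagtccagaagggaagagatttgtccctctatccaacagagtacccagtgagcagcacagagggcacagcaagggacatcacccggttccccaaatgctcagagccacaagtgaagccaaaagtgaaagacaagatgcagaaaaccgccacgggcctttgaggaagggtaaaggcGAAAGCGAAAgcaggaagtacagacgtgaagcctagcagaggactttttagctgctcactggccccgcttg

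The PSME3 window held a TEAD match on the opposite strand at position −151 from the start. The PSMC4 window held an antioxidant response element core on the opposite strand at position 28 after the start, and the PSMB10 window held an interferon element core at position −21. The PSMB2 window held none of the 3 letter patterns. RefSeq promoters were found for 40 of the 46 members, in 49 windows, and not for PSMA7, PSMB1, PSMB6, PSMB7, PSMD4 and PSMG3. The antioxidant core was in 30.6% of the members' windows and in 13.3% of all 35116 promoter windows. The interferon core was in 14.3% of the members' windows and 3.57% of all, and the TEAD motif in 14.3% and 14.03%. Matches of different motifs overlapped in 0 of the members' windows. The 7 members with the interferon core were PSMA4, PSMB4, PSMB8, PSMB10, PSMG4, PSME1 and PSME2. The antioxidant core was held by 15 members, with at least 1 in every group. Among them were 4 assembly chaperones, PSMD5, PSMD9, PSMG1 and PSMG2. A match describes the letters of a window, not binding.

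YAP1 itself stood at 28.1, 26.2 and 22.9 FPKM in the Sh-NC libraries and at 3.35, 2.67 and 2.58 FPKM in the Sh-YAP1 libraries. It fell by 2.79 on the log2 scale with an SE of 0.12 (adjusted p = 0.0018). This and every adjusted p below is from limma on log2(FPKM + 1), with the Benjamini-Hochberg correction taken over the whole table. By this test, 499 of 14770 genes changed, 259 higher and 240 lower, which is 3.38% of the genes tested. The libraries summed to between 467493 and 475116 FPKM, and the values do not hold the sequencing depth. The mesenchymal markers VIM, CD44, AXL and MSN were all above 110 FPKM, and AXL fell by 0.35 on the log2 scale (adjusted p = 0.039, limma) while MSN was lower without overlap at −0.15 (adjusted p = 0.179, limma). ESR1, PGR and CDH1 stayed below 0.5 FPKM. ERBB2 was between 14.3 and 18.1 FPKM, EPCAM between 2.43 and 3.27 FPKM, and of the immune markers PTPRC and CD3E were at or below 0.04 FPKM, CD14 between 0.32 and 0.84 FPKM and LYZ between 0.43 and 0.77 FPKM. CD14 and LYZ had higher means in Sh-YAP1 (0.587 against 0.373 FPKM and 0.73 against 0.537 FPKM), and their part in the results was not tested. The fibroblast marker COL1A1 was between 3.64 and 8.32 FPKM, COL3A1 and DCN at or below 1.06 FPKM, and the endothelial markers PECAM1 and VWF at or below 1.7 FPKM. In bulk RNA, fewer cells of a type and less RNA per cell cannot be told apart.

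The proteasome genes were expressed at a high level. Their means over the 6 libraries had a median of 79.5 FPKM and a range of 10.7 to 246 FPKM, against a median of 7.34 FPKM for all genes tested. Most of them were slightly lower in Sh-YAP1. Their median log2 fold change was −0.14, with 39 of 46 below 0 (84.8%), where all genes tested had a median of −0.0014 and 50.2% below 0. All genes tested were not matched to the members in level, and whether the shift depends on level was not tested. Only 1 of the 46, PSME3, passed the test, and it rose. At an unadjusted p under 0.05 there were 12 lower and 2 higher members, against 11.1% lower and 10.8% higher among all genes tested. In 15 members all Sh-YAP1 libraries lay below all Sh-NC libraries, and in 2 all lay above, beside 14.7% and 14.6% of all genes. Under quantile normalization 35 of 46 were below 0, the median was −0.079, and the members without overlap were 10 lower and 3 higher.

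The size of this shift differed between the Sh-YAP1 libraries. The 46 members summed to 4133, 4207 and 4091 FPKM in Sh-NC replicates 1, 2 and 3. In Sh-YAP1 replicates 1, 2 and 3 they summed to 3522, 3885 and 3876 FPKM. All Sh-YAP1 libraries lay below all Sh-NC libraries, and replicate 1 lay far below the other two. Sh-YAP1 replicate 1 was the lowest of the 6 libraries in 29 of 46 members (63.0%), where it was the lowest in 20.6% of all genes tested. Without that library the members' median log2 fold change was −0.0825, 35 of 46 were below 0, and 17 were lower without overlap, beside 19.5% of all genes in the same comparison. What sets this library apart was not tested.

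**Figure D1:**
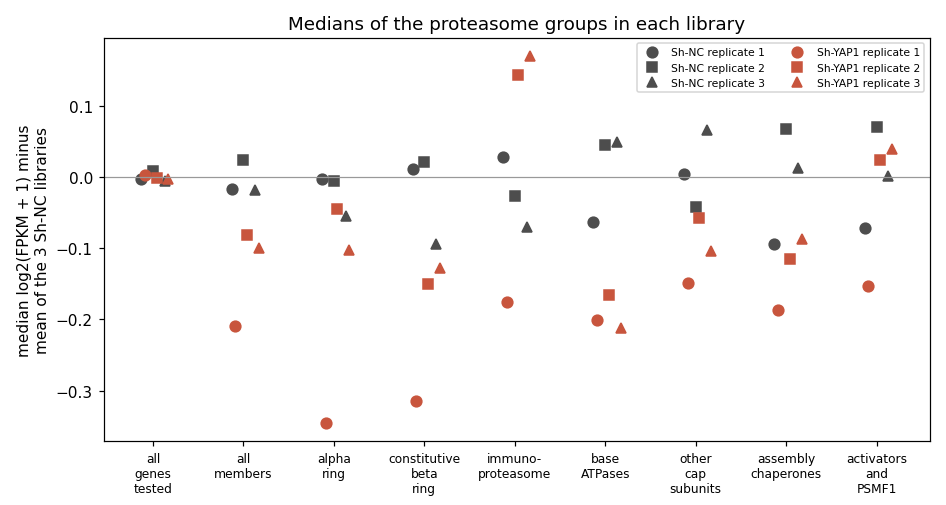
Median over the genes of each proteasome group, and over all genes tested, of log2(FPKM + 1) in each library minus the mean of the 3 Sh-NC libraries. All members lie at −0.21, −0.081 and −0.099 in Sh-YAP1 replicates 1, 2 and 3, and the circle of Sh-YAP1 replicate 1 is lowest in every proteasome group except the base ATPases, while all genes tested stay near 0.

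**Figure D2:**
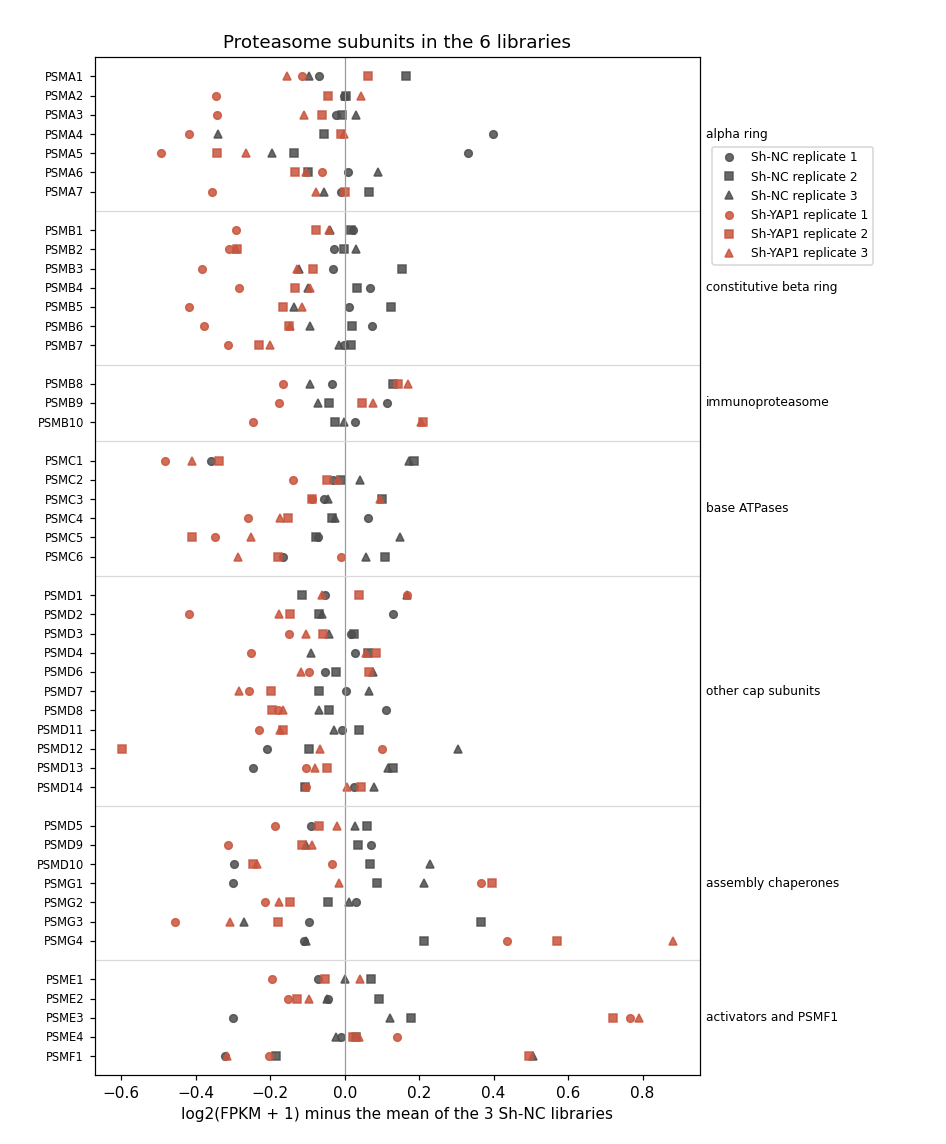
Each of the 46 members, one per line, as log2(FPKM + 1) in each of the 6 libraries minus the mean of the 3 Sh-NC libraries (grey Sh-NC, red Sh-YAP1, with a marker shape for each replicate number). PSME3 and PSMG4 are the lines whose red points all lie right of the grey ones, and 15 lines have all red points to the left.

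The alpha ring, which forms the gate of the core, had 7 members, all with values below 0 and a median log2 fold change of −0.14. None of these passed the test (limma, Benjamini-Hochberg), and 1 had an unadjusted p under 0.05. PSMA3 and PSMA5 were lower without overlap between the groups. Without Sh-YAP1 replicate 1 the median of the ring was −0.046, and it was −0.060 under quantile normalization.

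PSMA5 (ENSG00000143106, chr1:109399031-109426427, minus strand, GRCh38) had the largest difference of the ring. It stood at 65.2, 46.9 and 44.9 FPKM in Sh-NC and at 36.4, 40.5 and 42.8 FPKM in Sh-YAP1, a log2 fold change of −0.37 (SE 0.15, adjusted p = 0.224, limma). The groups did not overlap, but Sh-NC replicate 1 stood well above the other control libraries. In that library 32.8 FPKM came from a transcript that was at or below 0.31 FPKM in the other 5. Without Sh-NC replicate 1 the log2 fold change of PSMA5 was −0.20.

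PSMA1 differed least, with 77.0, 90.7 and 75.6 FPKM in Sh-NC and 74.6, 84.5 and 72.4 FPKM in Sh-YAP1. The groups overlapped, with a log2 fold change of −0.069 (SE 0.10, adjusted p = 0.734, limma). PSMA7, the most abundant member of the ring, stood at 255.5, 269.4 and 247.9 FPKM in Sh-NC. In Sh-YAP1 it was 200.9, 257.4 and 244.0 FPKM, so that the group difference came mainly from replicate 1. The same held for PSMA2, which was at 90.1 to 90.4 FPKM in Sh-NC and at 70.8, 87.5 and 93.0 FPKM in Sh-YAP1. PSMA3, PSMA4 and PSMA6 had log2 fold changes of −0.17, −0.14 and −0.10, and PSMA4 varied most between control libraries, from 90.4 to 151.5 FPKM. With single libraries left out, they ranged from −0.23 to −0.085, from −0.31 to 0.056 and from −0.15 to −0.055.

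The constitutive beta ring, which holds the catalytic sites, had the lowest median of the groups, −0.22, with 7 of 7 below 0. Of these, 0 passed the test (limma, Benjamini-Hochberg), 3 had an unadjusted p under 0.05, and 4 (PSMB1, PSMB2, PSMB6 and PSMB7) were lower without overlap. Sh-YAP1 replicate 1 was the lowest library for all 7, and without it the median was −0.14, above the −0.20 of the cap's ATPase ring, so the order of the groups depends on that library.

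PSMB2, a non-catalytic subunit of the ring (ENSG00000126067, chr1:35599544-35641844, minus strand, GRCh38), was the most even of the lower members. It stood at 42.6, 43.3 and 44.4 FPKM in Sh-NC and at 34.8, 35.3 and 35.3 FPKM in Sh-YAP1. The means, 43.4 ± 0.894 and 35.1 ± 0.267 FPKM (SD, n = 3), differed by several times the spread within a group. The log2 fold change was −0.30 (SE 0.060, 95% interval −0.44 to −0.15) with an adjusted p of 0.0525 in limma, so PSMB2 missed the threshold. It passed when genes needed a mean of at least 1 FPKM (adjusted p = 0.0481) and when libraries were centred on their medians (adjusted p = 0.0462, limma). Over the alternatives its adjusted p ran up to 0.173, with the replicate number as a block.

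The catalytic subunits of the constitutive ring behaved alike in direction. PSMB7, which cuts after basic residues, was at 179.8, 182.3 and 178.2 FPKM in Sh-NC and 144.6, 153.3 and 156.5 FPKM in Sh-YAP1. Its groups were well apart, with a log2 fold change of −0.25 (SE 0.061, adjusted p = 0.0809, limma). PSMB6, which cuts after acidic residues, was at 194.5, 187.5 and 173.0 FPKM in Sh-NC and 142.1, 166.4 and 166.9 FPKM in Sh-YAP1. Its groups did not overlap, though the nearest libraries were close, and the log2 fold change was −0.22 (SE 0.089, adjusted p = 0.207, limma).

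PSMB5, the chymotrypsin-like subunit that bortezomib inhibits, was at 144.9, 156.8 and 130.7 FPKM in Sh-NC and 107.4, 127.97 and 132.67 FPKM in Sh-YAP1. Here the highest Sh-YAP1 library exceeded the lowest control, and the log2 fold change of −0.23 had an SE of 0.11 (adjusted p = 0.269, limma). PSMB1 had the smallest difference of the ring, −0.14 (SE 0.083, adjusted p = 0.387, limma), with 127.1, 126.7 and 121.8 FPKM in Sh-NC and 102.0, 118.5 and 121.6 FPKM in Sh-YAP1. Its groups were separated only narrowly. The log2 fold changes of PSMB3 and PSMB4 were −0.20 and −0.17, with overlapping groups. Without Sh-YAP1 replicate 1 the values were −0.14 for PSMB5, −0.15 for PSMB6, −0.059 for PSMB1, −0.11 for PSMB3 and −0.11 for PSMB4.

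**Figure D3:**
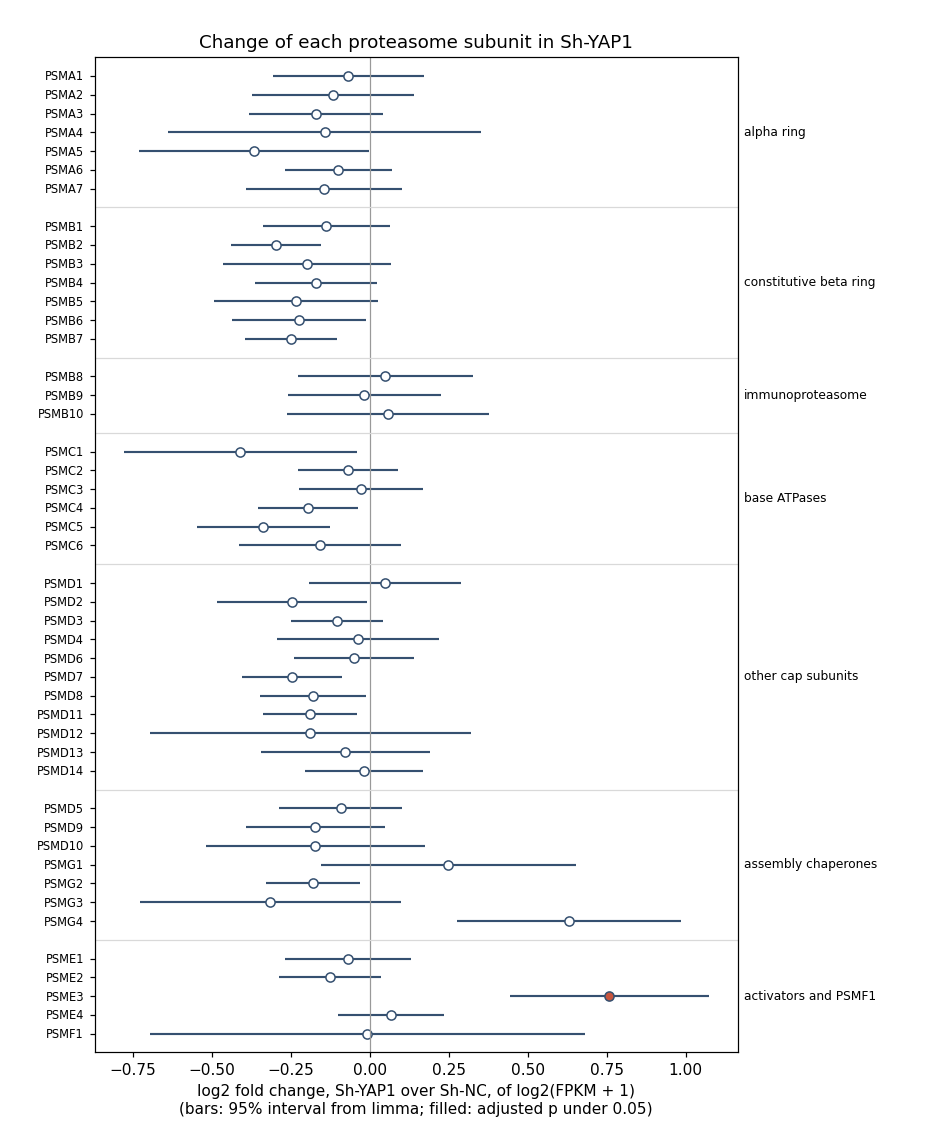
Log2 fold change of each of the 46 members, Sh-YAP1 over Sh-NC, on log2(FPKM + 1), with bars for the 95% interval from limma and a filled point for an adjusted p under 0.05. PSME3 is the filled point at 0.76, PSMG4 lies at 0.63, and most other points lie between −0.30 and 0, most with bars that include 0.

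The immunoproteasome subunits had fitted differences close to 0, with intervals on both sides of it. Their median log2 fold change was 0.049, and 0 of 3 passed the test or an unadjusted p under 0.05 (limma). PSMB8, the inducible counterpart of PSMB5, was at 28.8, 32.4 and 27.6 FPKM in Sh-NC and 26.2, 32.7 and 33.3 FPKM in Sh-YAP1. Its difference on the log2 scale was 0.049 with a 95% interval of −0.23 to 0.33 (adjusted p = 0.843, limma).

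PSMB9, the counterpart of PSMB6, was at 12.61, 11.21 and 10.98 FPKM in Sh-NC and 10.14, 12 and 12.27 FPKM in Sh-YAP1. It differed by −0.017 on the log2 scale with an interval of −0.26 to 0.22 (adjusted p = 0.942, limma). PSMB10, the counterpart of PSMB7, was at 24.6, 23.6 and 24.1 FPKM in Sh-NC and 20.15, 28.03 and 27.93 FPKM in Sh-YAP1. It differed by 0.057 on the log2 scale with an interval of −0.26 to 0.38 (adjusted p = 0.842, limma). For all 3, Sh-YAP1 replicate 1 was the lowest of the 6 libraries, and for PSMB9 and PSMB10 the interval includes the value of the constitutive counterpart. Without Sh-YAP1 replicate 1 the median of the 3 was 0.16, without Sh-YAP1 replicate 2 or 3 it was −0.020 or −0.0175, and without Sh-NC replicate 3 it was 0.0017, so its sign depends on single libraries.

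PSMB8 (chr6:32840717-32844703, minus strand) and PSMB9 (chr6:32844136-32859585, plus strand) are neighbours in the major histocompatibility complex on GRCh38 and overlap by 568 bases on opposite strands. PSMB9 as annotated also overlaps TAP1, the peptide transporter, by 8770 bases on the opposite strand. Whether strand was used in the quantification is not given in the sources used here, so reads from these overlaps cannot be told apart.

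Each inducible subunit was then set against the subunit whose place it takes, as a ratio of FPKM within a library. PSMB8 was 19.9%, 20.6% and 21.1% of PSMB5 in Sh-NC, and 24.4%, 25.5% and 25.1% in Sh-YAP1. PSMB9 was 6.48%, 5.98% and 6.35% of PSMB6 in Sh-NC, and 7.14%, 7.21% and 7.35% in Sh-YAP1. PSMB10 was 13.7%, 13% and 13.5% of PSMB7 in Sh-NC, and 13.9%, 18.3% and 17.8% in Sh-YAP1. All 3 ratios were higher in every Sh-YAP1 library than in any control library. The constitutive subunits were several times more abundant in all 6 libraries. On the log2 scale the ratios differed by 0.28, 0.21 and 0.31, and p was 0.1 for each by exact permutation (two-sided), which is the smallest p that 3 against 3 allows. These 3 ratios share libraries, and a ratio can shift through either of its subunits. By gene, PSMB8, PSMB9 and PSMB10 differed by 0.049, −0.017 and 0.057 on the log2 scale. Their counterparts PSMB5, PSMB6 and PSMB7 differed by −0.23, −0.22 and −0.25. The ratios thus hold the lower values of the constitutive subunits and are no separate result. In PSMB10 over PSMB7, Sh-YAP1 replicate 1 stood only just above the controls. With a pseudocount of 0.1, without transcripts under 0.1 FPKM, or without each library in turn, the 3 differences ranged from 0.17 to 0.43 and kept their direction. Quantile normalization was not applied to the ratios.

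**Figure D4:**
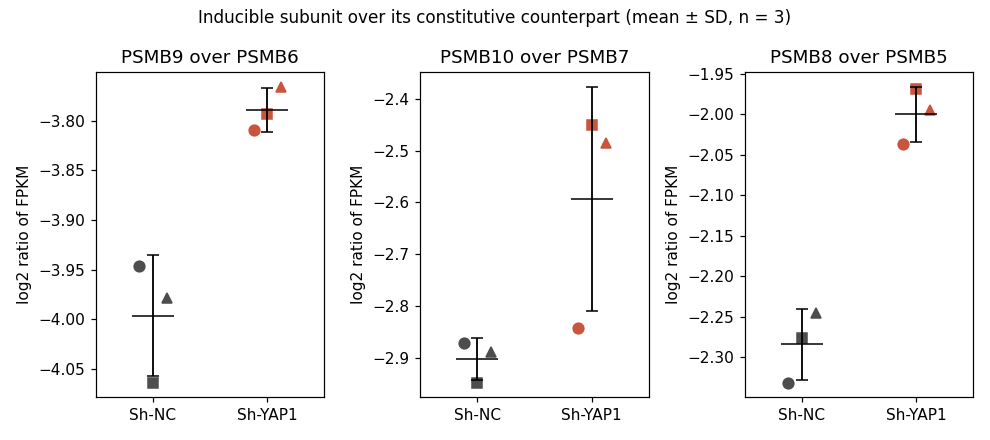
Log2 ratio of FPKM of each inducible beta subunit over its constitutive counterpart in each library, with the mean and SD of each group (n = 3). All Sh-YAP1 points lie above all Sh-NC points in each panel, by 0.21, 0.31 and 0.28 on average for PSMB9, PSMB10 and PSMB8.

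The ATPases of the cap's base, PSMC1 to PSMC6, unfold the substrate and open the gate of the core. All 6 were below 0 with a median log2 fold change of −0.18, 3 had an unadjusted p under 0.05, and 0 passed the test (limma, Benjamini-Hochberg). PSMC4 and PSMC5 were lower without overlap. This group did not rest on Sh-YAP1 replicate 1, since its median without that library was −0.20.

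PSMC1 (ENSG00000100764, chr14:90256495-90275429, plus strand, GRCh38) had the lowest fitted value among all 46 members. It stood at 72.7, 106.5 and 105.5 FPKM in Sh-NC and at 66.7, 73.8 and 70.2 FPKM in Sh-YAP1. This was a log2 fold change of −0.41 (SE 0.15, adjusted p = 0.189, limma), and Sh-NC replicate 1 lay within the Sh-YAP1 range. The split among controls came from one transcript at 2.12, 38.6 and 33.9 FPKM in Sh-NC and 11.5, 13.6 and 9.04 FPKM in Sh-YAP1. Without that transcript the log2 fold change was −0.25 (adjusted p = 0.104, limma), and without Sh-NC replicate 1 it was −0.59 (adjusted p = 0.0581, limma).

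PSMC5 (chr17:63827152-63832026, plus strand) was at 119.7, 119.4 and 139.8 FPKM in Sh-NC and 98.6, 94.6 and 105.7 FPKM in Sh-YAP1. All Sh-YAP1 libraries lay below the controls, with a log2 fold change of −0.34 (SE 0.087, adjusted p = 0.0928, limma). PSMC5 overlaps FTSJ3 on the opposite strand by 2861 bases. PSMC4 had a log2 fold change of −0.20 (SE 0.066, adjusted p = 0.157, limma), from 89.0, 83.1 and 83.6 FPKM in Sh-NC to 71.0, 76.6 and 75.5 FPKM in Sh-YAP1. PSMC3 differed least, −0.027 (SE 0.082, adjusted p = 0.882, limma), with 169.8, 189.0 and 170.9 FPKM in Sh-NC and 165.7, 166.0 and 188.5 FPKM in Sh-YAP1. The groups overlapped, and the direction of PSMC3 turned under quantile normalization (0.039). PSMC2 and PSMC6 had log2 fold changes of −0.068 and −0.16. With single libraries left out, they ranged from −0.094 to −0.032 and from −0.24 to −0.094.

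Of the other 11 cap subunits, which include the ubiquitin receptor PSMD4 and the deubiquitinase PSMD14, 10 were below 0, with a median log2 fold change of −0.10. Among them 4 had an unadjusted p under 0.05, 5 (PSMD2, PSMD3, PSMD7, PSMD8 and PSMD11) were lower without overlap, and 0 passed the test (limma, Benjamini-Hochberg). Under quantile normalization the median was −0.041.

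PSMD7, the partner of the deubiquitinase PSMD14, was at 101.9, 96.8 and 106.5 FPKM in Sh-NC and 84.9, 88.5 and 83.3 FPKM in Sh-YAP1. The groups were well apart, with a log2 fold change of −0.25 (SE 0.066, adjusted p = 0.1, limma). PSMD2, a scaffold of the base that docks ubiquitin-like proteins, had an equal log2 fold change of −0.25 but a wider spread (SE 0.10, adjusted p = 0.216, limma). It was at 267.8, 232.9 and 234.6 FPKM in Sh-NC and 182.9, 220.9 and 216.4 FPKM in Sh-YAP1, with replicate 1 lowest, and without that library its value was −0.16. PSMD1, the other large scaffold of the base, was the exception in direction at 0.048 (SE 0.10, adjusted p = 0.822, limma). It stood at 79.2, 75.9 and 92.5 FPKM in Sh-NC and 92.4, 84.4 and 78.8 FPKM in Sh-YAP1, with full overlap.

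The lid subunits PSMD8 and PSMD11 were lower without overlap. PSMD8 was at 164.8, 148.3 and 145.6 FPKM in Sh-NC and 134.8, 133.2 and 135.9 FPKM in Sh-YAP1, a log2 fold change of −0.18 (adjusted p = 0.199, limma). PSMD11 was at 38.9, 40.2 and 38.3 FPKM in Sh-NC and 33.2, 34.8 and 34.6 FPKM in Sh-YAP1, a log2 fold change of −0.19 (adjusted p = 0.15, limma). Both groups of libraries were tight for PSMD11. For PSMD8 control replicate 1 stood above the others, and the log2 fold change was −0.090 under quantile normalization. PSMD4 and PSMD14 stood close to 0 at −0.037 and −0.018, and both turned positive under quantile normalization (0.012 and 0.030). PSMD3, PSMD6, PSMD12 and PSMD13 lay between −0.19 and −0.049, and the lowest library of PSMD12 was Sh-YAP1 replicate 2 at 25.7 FPKM.

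Among the activators that can replace the cap, PSME3 rose, and no other member passed the test. PSME3 (ENSG00000131467, chr17:42824385-42843758, plus strand, GRCh38) encodes the nuclear activator that opens the core without ubiquitin or ATP. It stood at 37.5, 52.6 and 50.6 FPKM in Sh-NC and at 79.6, 77.1 and 81.0 FPKM in Sh-YAP1. All Sh-YAP1 libraries lay above all controls, and they varied less among themselves. The means were 46.9 ± 8.18 and 79.2 ± 1.97 FPKM (SD, n = 3), 1.69-fold higher in Sh-YAP1. The fitted log2 fold change was 0.76 (SE 0.13, 95% interval 0.44 to 1.07, adjusted p = 0.0353, limma). The call was lost when any library except Sh-NC replicate 1 was left out, with adjusted p from 0.0736 without Sh-NC replicate 2 to 0.111 without Sh-YAP1 replicate 3. Over the alternatives that kept all its main transcripts, the adjusted p ran from 0.0297 to 0.131, the latter with the replicate block.

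The PSME3 value was a sum over 17 transcripts, and different transcripts carried it in different libraries. The transcript listed first was at 6.07, 0.09 and 0.08 FPKM in Sh-NC, and at 71.1, 0.19 and 71.5 FPKM in Sh-YAP1. The transcript listed sixth was at 16.1, 30.1 and 45.9 FPKM in Sh-NC, and at 3.11, 69.1 and 3.88 FPKM in Sh-YAP1. These transcripts exchanged places between Sh-YAP1 replicate 2 and the other Sh-YAP1 libraries while the gene sum stayed between 77.1 and 81.0 FPKM. In Sh-NC the transcript listed second also held 11.9, 20.7 and 3.21 FPKM. The tested value of PSME3 is the sum over these transcripts.

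PSME3 also overlaps BECN1, an autophagy gene, by 8966 bases on the opposite strand. BECN1 stood at 19.7, 41.5 and 23.0 FPKM in Sh-NC and at 34.1, 66.0 and 28.2 FPKM in Sh-YAP1. The overlap between groups was wide, with a log2 fold change of 0.57 (SE 0.38, adjusted p = 0.431, limma). Without strand, reads from the shared stretch cannot be told apart between PSME3 and BECN1, and its part in the PSME3 value was not tested.

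**Figure D5:**
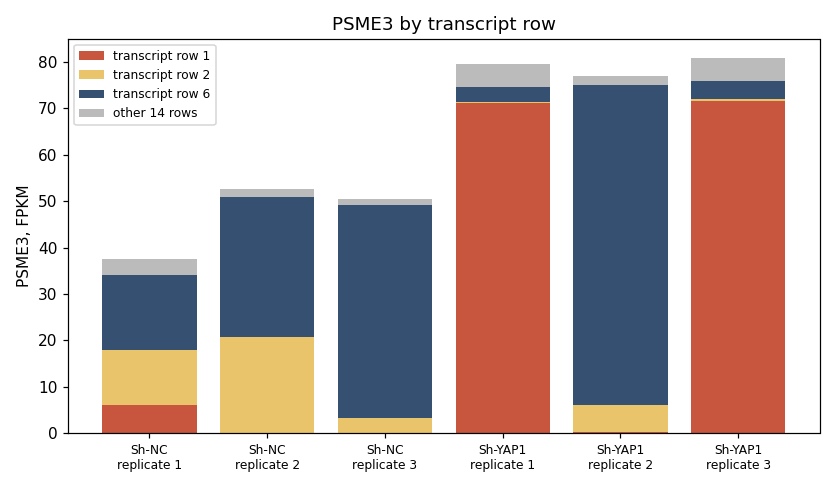
FPKM of PSME3 in each library, stacked by transcript in the order in which the deposited values list them. The total is between 77.1 and 81.0 FPKM in Sh-YAP1 and at most 52.6 FPKM in Sh-NC, while the leading transcript is the first in Sh-YAP1 replicates 1 and 3 and the sixth in Sh-YAP1 replicate 2.

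PSME1 and PSME2 form the interferon-inducible activator that works with the immunoproteasome. PSME2 was at 65.5, 72.1 and 65.4 FPKM in Sh-NC and 60.7, 61.7 and 63.2 FPKM in Sh-YAP1, without overlap and −8.57% from the control mean. Its log2 fold change of −0.13 (SE 0.068) had an adjusted p of 0.331 in limma. PSME1 had a log2 fold change of −0.069 and PSME4, the large nuclear activator, one of 0.067, both with overlapping groups. PSMF1, an inhibitor of the core in vitro, varied most, with 21.5, 23.8 and 39.0 FPKM in Sh-NC and 23.5, 38.6 and 21.6 FPKM in Sh-YAP1. Each group held 1 high library, and the log2 fold change was −0.0081 (SE 0.29, adjusted p = 0.991, limma).

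The assembly chaperones had a median level of 26.4 FPKM, and their differences had both signs. Of 7, 5 were below 0 and 2 above, the median log2 fold change was −0.17, and 0 passed the test (limma, Benjamini-Hochberg), while 1 lower and 1 higher had an unadjusted p under 0.05. The median was −0.078 without Sh-NC replicate 3 and −0.10 without Sh-YAP1 replicate 1. PSMG3 and PSMG4 form a pair that helps to build the alpha ring, and they differed in opposite directions. PSMG4 (ENSG00000180822, chr6:3231403-3303373, plus strand, GRCh38) was at 7.43, 9.54 and 7.45 FPKM in Sh-NC and 11.3, 12.5 and 15.7 FPKM in Sh-YAP1. All Sh-YAP1 libraries lay above the controls, 1.62-fold in the means, with a log2 fold change of 0.63 (SE 0.15, adjusted p = 0.0752, limma).

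PSMG3 was at 17.7, 24.7 and 15.6 FPKM in Sh-NC and 13.6, 16.6 and 15.1 FPKM in Sh-YAP1. Its groups overlapped, and its log2 fold change of −0.31 (SE 0.17, adjusted p = 0.338, limma) was −0.13 without the high control replicate 2. PSMG1 and PSMG2, the pair that starts the alpha ring, also differed in sign. PSMG2 was at 49.2, 46.7 and 48.6 FPKM in Sh-NC and 41.4, 43.4 and 42.5 FPKM in Sh-YAP1, lower without overlap (log2 fold change −0.18, adjusted p = 0.163, limma). PSMG1 had a log2 fold change of 0.25 (SE 0.17, adjusted p = 0.437, limma), with 26.0, 34.2 and 37.4 FPKM in Sh-NC and 41.7, 42.6 and 31.8 FPKM in Sh-YAP1. Without Sh-NC replicate 1 it was 0.099, and without Sh-YAP1 replicate 3 it was 0.38. The chaperones of the ATPase ring, PSMD5, PSMD9 and PSMD10, had log2 fold changes of −0.093, −0.17 and −0.17 with overlapping groups. Without Sh-YAP1 replicate 1 PSMD5 was at −0.046 and PSMD9 at −0.10, and PSMD10 was at −0.058 without Sh-NC replicate 3 and at −0.32 without Sh-NC replicate 1.

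By the large complexes, the 14 constitutive core subunits had a median log2 fold change of −0.17 with 14 below 0. The 17 cap subunits had a median of −0.16 with 16 below 0. Of these 31 stoichiometric subunits, 13 were lower without overlap, 11 had an unadjusted p under 0.05 and 0 passed the test (limma, Benjamini-Hochberg). Among all genes tested, 14.7% were lower without overlap and 11.1% were lower at an unadjusted p under 0.05. The members that lay furthest above 0, PSME3, PSMG4 and PSMG1, are all outside the stoichiometric core and cap.

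The members are spread over 17 chromosomes, with 7 on chromosome 14 and 7 on chromosome 17. The chromosome 17 set included PSME3 at 0.76 as well as PSMC5 at −0.34 and PSMB6 at −0.22. In 28 of 46 members the same transcript was the most abundant in all 6 libraries, and in 18 the leading transcript changed between libraries, as it did in PSME3, PSMC5 and PSMA5. PSMB2 was carried by a single transcript, and the leading transcript of PSMB6 and of PSMB7 held 97.8% and 96.9% of the level.

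Other genes of the pathway were taken from a list of 28 that were above the same level filter. Of these, 3 rose and 0 fell (limma, Benjamini-Hochberg), beside 3.38% of all genes tested called in either direction, with a median log2 fold change of −0.045. PAAF1, which binds the cap's ATPases and can keep them off the core, was at 2.91, 3.01 and 2.76 FPKM in Sh-NC and 7.53, 5.31 and 5.79 FPKM in Sh-YAP1. It was 2.15-fold higher in the means, with a log2 fold change of 0.88 (SE 0.13, adjusted p = 0.0245, limma). ZFAND5, a stimulator of the proteasome, was at 24.0, 27.1 and 27.7 FPKM in Sh-NC and 37.3, 38.5 and 41.1 FPKM in Sh-YAP1 (adjusted p = 0.0249, limma). Both PAAF1 and ZFAND5 were higher in every Sh-YAP1 library than in any control. Their calls were lost when single libraries were left out, except that of PAAF1 without Sh-YAP1 replicate 1.

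NFE2L1, the transcription factor of the subunit genes, was at 63.3, 65.2 and 36.3 FPKM in Sh-NC and 79.3, 84.8 and 78.3 FPKM in Sh-YAP1. The groups did not overlap, but control replicate 3 was low, and the log2 fold change of 0.59 (SE 0.22) had an adjusted p of 0.182 in limma. NFE2L2 had the lowest value of the list, −0.43 (SE 0.48, adjusted p = 0.646, limma), through 12.4 FPKM in Sh-YAP1 replicate 2 where the other 5 libraries were between 37.7 and 47.6 FPKM. ADRM1 and SEM1, further cap subunits under other names, had log2 fold changes of −0.16 and 0.081, and POMP, the maturation factor of the beta ring, one of −0.13.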

How the data were processed

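RNA from 3 Sh-NC and 3 Sh-YAP1 samples of MDA-MB-231 cells was sequenced. The authors deposited FPKM values, 229420 transcript rows per library with a gene identifier. The submitters' processing notes name HISAT2 2.0, Bowtie 0.12.2 and hg19. The quantification tool, annotation, strand setting and any filter are not given in the sources used here, and they are already in the values. The depth of the libraries is unknown, so no counting interval was computed and errors come from the spread between libraries.

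FPKM were summed over the rows of a gene identifier. Of 60612 identifiers, 58394 were named from GENCODE 29, 2194 from a gene name table, and 24 had no name. Gene positions are those of GENCODE 29 on GRCh38, matched by identifier and not by coordinate. The 14770 genes whose mean reached 0.5 FPKM were compared on log2(FPKM + 1) by limma 3.58.1 in R 4.3.3 (lmFit, then eBayes with a trend of variance on mean). Adjusted p-values are Benjamini-Hochberg values over these genes, with a threshold of 0.05. Fold changes on this scale understate the change of low genes. Ratios were compared with exact two-sided permutation tests. The code was tested on simulated data. Summaries and figures used Python 3.11.15, numpy 2.4.6, pandas 2.3.3 and matplotlib 3.10.9.

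The members and gene lists were chosen with earlier results of these data known. Named in full were members past the threshold, those with the highest and lowest fitted value of each group, the catalytic beta subunits, and in the other list of the pathway the genes past the threshold with its highest and lowest value; PSMA2, PSMA7, PSMC4, PSMC5, PSMD8, PSMD11, PSMG1, PSMG2, PSMF1, NFE2L1, ADRM1, SEM1, POMP and BECN1 were chosen with their values known. The pathway list was counted whole, but some of its genes are not reported here by name. Alternatives varied the pseudocount, scaling, filter, variance model, transcript rows, replicate block and libraries. The labels do not say whether replicate numbers pair the samples. Deviations of libraries with the same number had correlations of −0.029, 0.062 and 0.0042 for numbers 1, 2 and 3.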

Additional observations from a re-analysis of the deposited data

How the results depend on the processing

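The number of genes called was 499 in limma, 232 without a filter on low values and 78 to 171 when single libraries were left out. Of the 46 subunits 1 was called, with 2 under median centring and with a minimum mean of 1 FPKM (PSMB2 was added), 0 without a filter (12 at an unadjusted p under 0.05, beside 3924 of 30501 genes), and 0 to 1 when single libraries were left out (8 to 14 at an unadjusted p under 0.05, beside 2624 to 3085 of 14770 genes). After the values were seen, the transcript that differed most was removed from PSME3, PSMG4 and PSMC1, which left 0 calls (13 at an unadjusted p under 0.05) and turned PSME3 to −1.18, a turn fixed by the choice, since the removed transcript held most of PSME3 in Sh-YAP1 replicates 1 and 3. The pathway list had 3 calls, with 1 without a filter and 0 to 1 when single libraries were left out.

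With the replicate number as a factor (replicate block), 1 gene was called in all (2779 at an unadjusted p under 0.05), 0 of the subunits (7 at an unadjusted p under 0.05) and 0 of the pathway list. The labels do not say whether the numbers pair the samples, so a call lost under the block was not interpreted either way.

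Quantile normalization gave a median log2 fold change of −0.079 for all subunits and −0.041 for the other cap subunits, and turned PSMC3 (0.039), PSMD4 (0.012), PSMD14 (0.030) and PSMF1 (0.0036). When single libraries were left out, the median over all subunits lay between −0.16 and −0.0825, that of the assembly chaperones between −0.14 and −0.078, and that of the activators between −0.11 and 0.081. Some subunits then changed sign, with log2 fold changes of −0.13 to 0.014 for PSMA1, −0.31 to 0.056 for PSMA4, −0.011 to 0.16 for PSMB8, −0.064 to 0.062 for PSMB9 and −0.020 to 0.21 for PSMB10. Further ranges were −0.088 to 0.023 for PSMC3, −0.011 to 0.13 for PSMD1, −0.097 to 0.071 for PSMD4, −0.33 to 0.016 for PSMD12, −0.071 to 0.025 for PSMD14, −0.26 to 0.25 for PSMF1 and −0.76 to 0.17 for NFE2L2. Over 739 pairs of a subunit and an alternative, 706 kept direction and side of the threshold, 24 turned, 7 lost the call and 2 gained it. The causes of these changes were not tested. With 3 libraries per group and no depth in the values, differences of the size seen in most subunits were not resolved gene by gene.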

Other observations

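Processed copies of the proteasome genes were listed as pseudogenes for 32 loci, of which 6 had a mean of at least 0.5 FPKM, and all 32 together had a mean of 16.8 FPKM. PSMC1P1 was at 9.53, 3.48 and 3.85 FPKM in Sh-NC and at 5.25, 5.31 and 6.57 FPKM in Sh-YAP1, and PSMA6P1 was at 5.29, 5.89 and 5.0 FPKM in the controls and at 5.88, 4.55 and 4.6 FPKM in Sh-YAP1. The control library with the highest PSMC1P1 was replicate 1, the one with the lowest PSMC1. How the quantification split reads between near-identical copies is not given in the sources used here, so the levels of PSMC1 and PSMA6 carry that uncertainty.

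TAP1, the peptide transporter that overlaps PSMB9 on the opposite strand, had a mean of 11.96 FPKM in the controls and 9.88 FPKM after knockdown. PSMC3IP, a recombination factor named after PSMC3 and no proteasome subunit, was at 12.71, 12.99 and 13.36 FPKM in Sh-NC and at 14.6, 13.7 and 13.3 FPKM in Sh-YAP1, with overlapping groups.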
